A study of Mus musculus with 6 samples.

Results

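This account covers 48 genes of autophagy and of the lysosomal proton pump, out of 24062 genes in the count table, in retinas of rd10 and wild-type (WT) mice. The members are the rows whose symbol begins with Atg or Lamp and a digit or with Atp6v, together with Sqstm1, Map1lc3a and Map1lc3b, a rule on names alone, though it was set with earlier results of these data known. They comprise 18 Atg genes, 23 Atp6v rows, 4 Lamp genes, the LC3 genes Map1lc3a and Map1lc3b, and the receptor gene Sqstm1. Whole retinas were taken at postnatal day 30 from rd10 mice and from wild-type mice, both labelled C57Bl6/J, with 2 frozen retinas in each sample and 3 libraries per group. The rd10 allele is a missense change in Pde6b, which encodes a subunit of the rod phosphodiesterase, and rd10 mice lose their rods in the weeks after birth. Nothing in the labels ties each sample to its own animal, and the p-values below measure the spread between samples, which may be technical.

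Autophagy encloses cytoplasm in a double membrane, the autophagosome, and delivers it to lysosomes for breakdown. The ATG proteins start the membrane, supply it with lipid and couple LC3-type proteins to it, receptors such as p62 (the product of Sqstm1) tie cargo to LC3, and LAMP proteins coat the lysosome. The vacuolar ATPase (V-ATPase) is a rotary pump whose cytosolic V1 part burns ATP and whose membrane V0 part moves protons, which acidifies lysosomes and, in neurons, loads synaptic vesicles. Photoreceptors and the pigment epithelium both depend on this machinery, and in the retina it is studied for its part in outer segment turnover and in cell death.

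The libraries held between 10923556 and 12171088 counts in rd10 and between 13573035 and 15818918 in WT. WT-1 and Rd10-4 stood apart from the others of their groups on the second principal component, which carried 26.6% of the variance. GC slopes were taken on the log2 level of each gene minus its mean over the 6 libraries. In these 2 libraries this relative level rose with transcript GC content, by 0.375 and 0.335 per 10 percentage points. In the other 4 libraries the slope lay between -0.41, in WT-23, and -0.0627. As the slopes are relative to the other libraries, they do not show which libraries carry a GC effect. All 15 rod markers fell, with a summed level of 22715 to 33062 CPM in rd10 against 110810 to 130590 CPM in WT, and none of the retinal markers was at 0 throughout. CPM here are counts scaled to a common library size, corrected by TMM, a factor that sets most genes level between libraries. In whole-retina RNA, fewer cells of a type and less RNA per cell cannot be told apart, and this holds for every value below.

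The stretches just before the start site of 7 members are shown because TFEB, the transcription factor that drives lysosomal genes, binds E-boxes of the form TCACGTG in such stretches. The sequences are RefSeq's, in build GRCm38.p6, each giving the 140 bases before the listed start on the strand of the gene, with TCACGTG or its reverse complement, on either strand and joined where they overlap, in capitals. The first 4 genes hold the letters, and the last 3 are members that changed in rd10 and hold none in this window.
Lamp1, chr8:13159021-13159160, plus strand: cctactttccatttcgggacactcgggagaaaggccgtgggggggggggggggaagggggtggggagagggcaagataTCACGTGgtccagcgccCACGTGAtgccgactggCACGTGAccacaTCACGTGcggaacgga
Atp6v0b, chr4:117887330-117887469, minus strand: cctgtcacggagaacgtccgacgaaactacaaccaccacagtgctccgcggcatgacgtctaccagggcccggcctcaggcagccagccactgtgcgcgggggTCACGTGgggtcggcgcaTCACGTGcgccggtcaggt
Atp6v1a, chr16:44139260-44139399, minus strand: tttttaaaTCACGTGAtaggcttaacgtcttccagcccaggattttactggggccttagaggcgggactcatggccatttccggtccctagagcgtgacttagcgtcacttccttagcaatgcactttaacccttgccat
Atg3, chr16:45158689-45158828, plus strand: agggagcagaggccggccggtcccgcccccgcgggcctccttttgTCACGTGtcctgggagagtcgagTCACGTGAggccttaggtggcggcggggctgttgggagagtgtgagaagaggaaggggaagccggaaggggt
Lamp5, chr2:136052199-136052338, plus strand: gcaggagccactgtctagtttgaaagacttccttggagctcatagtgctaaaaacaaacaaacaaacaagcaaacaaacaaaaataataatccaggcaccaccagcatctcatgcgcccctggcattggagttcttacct
Atg4c, chr4:99193794-99193933, plus strand: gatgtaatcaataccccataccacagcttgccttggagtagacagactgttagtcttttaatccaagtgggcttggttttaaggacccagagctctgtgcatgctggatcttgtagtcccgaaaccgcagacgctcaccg
Atp6v0a1, chr11:101010258-101010397, plus strand: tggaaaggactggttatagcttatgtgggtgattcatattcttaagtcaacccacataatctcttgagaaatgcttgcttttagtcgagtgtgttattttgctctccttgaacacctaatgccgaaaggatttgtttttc

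Of the 48 members, 38 had an entry in the RefSeq promoter table, which covers 250 bases before and 50 after each start. TCACGTG on either strand was found in 8 of the 38 members (21.1%), namely Lamp1, Atp6v0b, Atp6v0d1, Atp6v0e, Atp6v1a, Atg3, Atg7 and Atg14, against 6.78% of 10454 genes tested for expression that have an entry and 4.29% of all 27025 genes with an entry. With the hexamer CACGTG alone, which lies within TCACGTG, 9 members (23.7%) and 11.6% of the tested genes held a match. Lamp1 held 4 copies, and Atp6v0b and Atg3 held 2 each. The RefSeq start of Atp6v0a1 at 101010398 lies inside the gene as GENCODE M21 draws it, which begins at 101009452, so another start of this gene is not shown. These matches describe letters and no binding was measured.

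Of the members tested in rd10 retinas, 35 were not called, which does not show that their levels were equal. Atp6v0a1, a membrane subunit of the pump, and Lamp5, a neuronal LAMP relative, rose, and Atg12 and Atg4c, genes of LC3 coupling and LC3 processing, fell. A filter on low counts passed 39 of the 48 members, and the other 9 had too few counts for a test. Of the 39, 4 (10.3%) were called, against 14.4% of all genes tested. A call means an adjusted p below 0.05 in the quasi-likelihood test of edgeR, with Benjamini-Hochberg adjustment over 13905 genes. By direction, 2 members were higher, against 7.12% of all genes, and 2 were lower, against 7.32%. The 3 libraries of a group lay wholly to one side of the other group for 13 of the 39 members (33.3%), against 35.7% of all genes. In 5 of them rd10 was above WT, against 17.1% of all genes, and in 8 it was below, against 18.6%. The members' median log2 fold change was 0.02, against -0.04 for all genes tested, and their values ran from -0.82 to 0.56. Both the share called and the median lay near those of all genes.

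**Figure D1:**
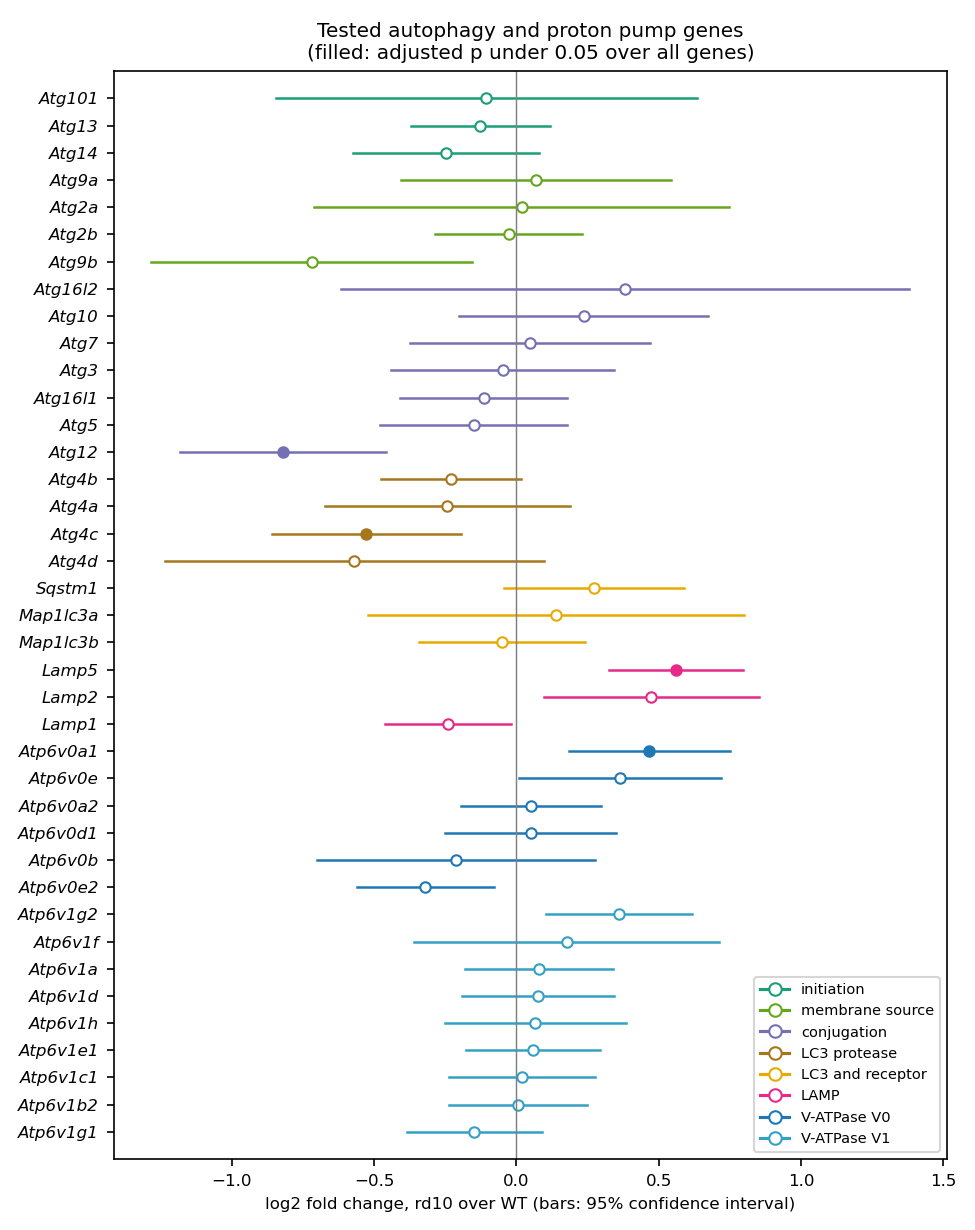
Log2 fold changes of rd10 over WT for the 39 tested members, in groups by role, with 95% confidence intervals of the fit; filled circles passed the adjusted threshold. Most intervals span 0, and the 4 filled circles are Lamp5 and Atp6v0a1 to the right and Atg12 and Atg4c to the left.

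The choice of scaling moved all genes at once. Against TMM, the median over all genes moved by 0.24 (log2) with library size alone and by -0.26 with factors from inner neuron genes (bipolar, amacrine and ganglion cell markers). Of all calls, 49.3% were higher in rd10 with TMM, 63.3% with upper quartile scaling, 81.2% with library size alone and 18.9% with inner neuron factors. Among members, library size alone gave 6 higher and 1 lower, and inner neuron factors gave 0 higher (2 or more were higher with each of the other scalings) and 7 lower. With inner neuron factors no gene of the 15 tested V-ATPase members was higher and Atp6v0e2 was lower. All directions below are relative to TMM.

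Among the Atg genes, Atg12 fell and the other conjugation genes did not pass the test (14.3% called, against 14.4% of all genes tested). Atg12 encodes a ubiquitin-like protein that is joined to ATG5 and, with ATG16L1, places LC3 on membranes. It had 34.8, 34.7 and 38.0 CPM in the rd10 libraries and 52.3, 60.8 and 76.4 CPM in the WT libraries. Every rd10 library lay below every WT library, and the WT libraries were spread more widely than the rd10 libraries. The log2 fold change was -0.82 ± 0.16 (SE, n = 3 per group; edgeR adjusted p = 0.0115). Leaving out WT-4 (adjusted p = 0.0586) or Rd10-3 (adjusted p = 0.0663) ended the call, and it held with library size alone (log2 fold change -0.58) as well as with inner neuron factors. Rod markers fell in the same libraries, and their part in the lower levels of Atg12 and Atg4c was not tested.

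The partners of Atg12 in the same reaction had smaller differences. Atg5, which receives ATG12, had 26.8, 25.6 and 30.1 CPM in rd10 and 26.7, 30.3 and 34.4 CPM in WT, and the groups overlapped (log2 fold change -0.15, 95% interval -0.48 to 0.18). Atg16l1, the scaffold that directs the conjugate to membrane, had -0.12 ± 0.13 (SE). Atg7, the activating enzyme of both conjugation routes, had 0.05 ± 0.18, Atg3, the enzyme that hands on LC3, had -0.05 ± 0.17, and Atg10, the enzyme that hands on ATG12, had 0.24 ± 0.19. None of these intervals reached the estimate of -0.82 for Atg12, the lowest bound being -0.48 for Atg5. The 95% interval of Atg12 ran from -1.18 to -0.46 and overlapped that of Atg5. A difference between Atg12 and its partners was not tested. Atg16l2, a relative of Atg16l1, was close to the limit of counting, with 21, 16 and 18 counts in rd10 and 24, 9 and 12 counts in WT, and its interval ran from -0.62 to 1.38.

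All 4 genes of the ATG4 proteases, which trim LC3 before coupling and free it from membranes afterwards, had negative fold changes. Of them Atg4c passed the test (25% called, against 14.4% of all genes tested). Over all genes tested, 7476 of 13905 had negative values, and Atg4b kept its sign in 15 of 16 refits. Atg4c had 27.1, 28.0 and 29.0 CPM in rd10, against 33.8, 41.4 and 46.0 CPM in WT, so that the groups did not overlap (log2 fold change -0.53 ± 0.14 SE, n = 3 per group, edgeR adjusted p = 0.0460). This call was close to the threshold. The gene lies at chr4:99193934-99259787 on the plus strand (mm10). Of the 6 libraries, leaving out any but WT-1 ended the call (adjusted p between 0.114 and 0.191), as did refits with RLE or upper quartile factors, unscaled library sizes and other filters (adjusted p between 0.0514 and 0.212). Atg4b, the main LC3 protease, had 66.005, 66.9 and 72.5 CPM in rd10 and 84.7, 76.8 and 79.4 CPM in WT. Its groups did not overlap either, but the difference missed the threshold (log2 fold change -0.23 ± 0.11, adjusted p = 0.194). Atg4d ranged from 19.0 to 27.8 CPM in rd10 and from 21.8 to 48.7 CPM in WT (adjusted p = 0.228). Exons of Atg4d share 1405 bases with Kri1 on the other strand, so without knowledge of the strand setting its count is uncertain. With the GC trend of each library removed, Atg4b, Atg4c and Atg4d were all lower (adjusted p = 0.0231, 0.00383 and 0.00609).

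The genes that start the autophagosome and feed it with lipid had no call by edgeR's quasi-likelihood test, 0 of 7, against 14.4% of all genes tested. At an unadjusted edgeR p under 0.05 there was 1 of the 7 (Atg9b), against 4188 of all 13905 genes. DESeq2 and limma voom called 0. With inner neuron factors Atg9b was lower (edgeR adjusted p = 0.0305), as were 2739 of all genes. Atg13 and Atg101, which carry the initiating kinase complex, had log2 fold changes of -0.13 ± 0.11 and -0.11 ± 0.32 (SE). Atg14, which brings the class III PI3-kinase to the site, had 31.0, 24.2 and 30.1 CPM in rd10, against 34.0, 36.1 and 31.2 CPM in WT, and the groups came close without overlap (-0.25 ± 0.14, adjusted p = 0.283). Atg9a, the lipid scramblase of the seed vesicles, stood at 84.7, 115 and 87.6 CPM in rd10 and at 118, 85.1 and 71.3 CPM in WT. Within both groups the highest value was in the library whose relative level rose with GC content, Rd10-4 and WT-1. Its rare paralog Atg9b had 19, 21 and 30 counts in rd10 and 35, 44 and 47 counts in WT, without overlap (-0.72 ± 0.24, adjusted p = 0.0909), and its exons share 294 bases with Nos3 on the other strand. The lipid transfer genes Atg2a and Atg2b had 0.02 ± 0.32 and -0.03 ± 0.11.

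The LC3 genes and Sqstm1, whose products are the usual readouts of autophagic flux at the protein level, did not pass the test. Map1lc3b had 211, 236 and 218 CPM in rd10 and 262, 225 and 202 CPM in WT, with an interval of the log2 fold change from -0.34 to 0.24. Map1lc3a had 107, 161 and 101 CPM in rd10 and 156, 107 and 72.1 CPM in WT, again highest in Rd10-4 and WT-1, with an interval from -0.52 to 0.80. Sqstm1 had 423, 451 and 384 CPM in rd10 and 398, 350 and 294 CPM in WT, and the lowest rd10 library lay below the highest WT library (log2 fold change 0.27 ± 0.14 SE, edgeR adjusted p = 0.224). With library size alone Sqstm1 was higher (0.52, adjusted p = 0.0283). By edgeR 0 of these 3 genes were called, against 14.4% of all genes tested. At an unadjusted edgeR p under 0.05 there were 0 of the 3, against 4188 of all 13905 genes. DESeq2 and limma voom called 0.

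Of the 3 tested LAMP genes, 1 was called, against 14.4% of all genes tested. Lamp5, which encodes a LAMP relative of neurons, rose. It lies at chr2:136052239-136069917 on the plus strand (mm10). It had 154, 140 and 139 CPM in rd10 and 99.8, 96.6 and 97.4 CPM in WT, which left a wide gap between the groups (log2 fold change 0.56 ± 0.10 SE, n = 3 per group, edgeR adjusted p = 0.00951). The call was lost without WT-4 (adjusted p = 0.0645), without Rd10-3 (adjusted p = 0.0714) and with inner neuron factors (log2 fold change 0.30, adjusted p = 0.117). Beside it, the summed level of 10 amacrine cell markers was 2146 to 2381 CPM in rd10 and 1740 to 2019 CPM in WT, with 0 of the 10 called. Sums of bipolar markers (2194 to 2311 CPM in rd10, 1779 to 2072 in WT) also lay higher in rd10. So did those of ganglion cell markers (1852.5 to 1915 CPM in rd10, 1507.5 to 1766 in WT). The part of any of these cell types in the rise of Lamp5 was not tested. Lamp2, whose product is also the receptor of chaperone-mediated autophagy, had 224, 191 and 217 CPM in rd10 and 118, 158 and 180 CPM in WT. The groups did not overlap, but the WT libraries were widely spread and the difference missed the threshold (0.47 ± 0.16, adjusted p = 0.0949). It was called after removal of the GC trend (0.56, adjusted p = 0.000212), with library size alone (0.71, adjusted p = 0.0229) and without WT-23 (0.63, adjusted p = 0.0381). Lamp1, a major glycoprotein of the lysosomal membrane, had 318, 320 and 309 CPM in rd10, all below the 377, 379 and 361 CPM of WT (-0.24 ± 0.10, adjusted p = 0.136). Lamp1 was called after removal of the GC trend (adjusted p = 0.0142) and with inner neuron factors (adjusted p = 0.0214). It shares 249 exonic bases with Grtp1 on the other strand. Lamp3 had 0 counts in rd10 and 0, 2 and 2 counts in WT.

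**Figure D2:**
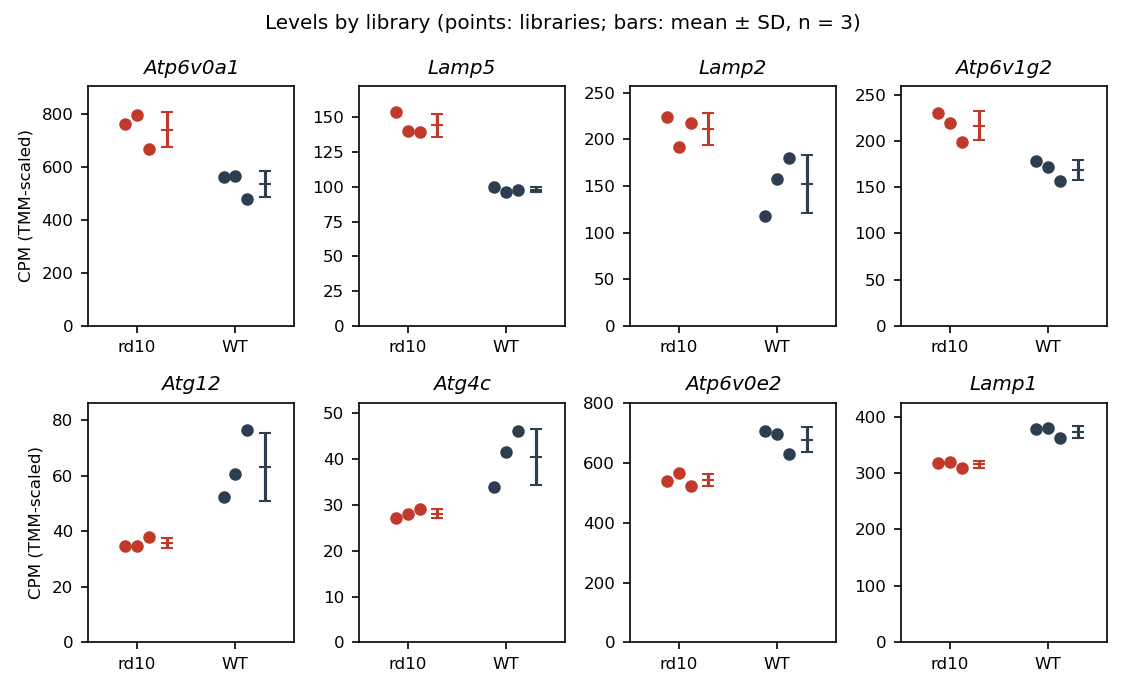
Levels in CPM of 8 members in the 3 rd10 libraries and the 3 WT libraries; points are libraries and bars are mean ± SD, with axes that start at 0. For each of the 8 genes, all rd10 libraries lie on one side of all WT libraries, though only Atp6v0a1, Lamp5, Atg12 and Atg4c passed the test over all genes. The 8 were chosen among the 13 members without overlap (33.3% of those tested, against 35.7% of all genes), so the separation follows from the choice.

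Among the V0 genes of the pump, Atp6v0a1 rose and the other 5 tested genes did not pass (16.7% called, against 14.4% of all genes tested). Atp6v0a1 encodes the a1 subunit, the form of neurons and synaptic vesicles, which forms part of the proton path, and lies at chr11:101009452-101063719 on the plus strand (mm10). It had 761, 795 and 667 CPM in rd10, against 564, 565 and 479 CPM in WT, so that the lowest rd10 library was above the highest WT library (log2 fold change 0.47 ± 0.12 SE, n = 3 per group, edgeR adjusted p = 0.0396). The call ended without any one of WT-4, WT-23, Rd10-3, Rd10-4 and Rd10-5 (adjusted p between 0.0517 and 0.156) and with inner neuron factors (0.21, adjusted p = 0.233). Without both WT-1 and Rd10-4 it held (adjusted p = 0.0484). The a2 gene, Atp6v0a2, had 66.4, 70.1 and 72.8 CPM in rd10 and 63.5, 70.3 and 68.2 CPM in WT, and the interval of its log2 fold change, -0.20 to 0.30, covered 0.

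None of the remaining V0 genes was called. Atp6v0e2, one of a pair of genes for the small e subunit, had 538, 566 and 524 CPM in rd10 and 706, 696 and 630 CPM in WT, without overlap (log2 fold change -0.32 ± 0.10, adjusted p = 0.0794). Its paralog Atp6v0e had 14.97, 14.9 and 13.8 CPM in rd10 and 12.8, 11.4 and 9.83 CPM in WT, also without overlap and in the other direction (0.36 ± 0.15, adjusted p = 0.157). Removal of the GC trend made Atp6v0e2 a call (adjusted p = 0.00208), and Atp6v0e was called with library size alone (adjusted p = 0.0254). Atp6v0d1, the subunit that couples V0 to the turning stalk, had 318, 335 and 290.4 CPM in rd10 and 344, 306 and 262 CPM in WT. Atp6v0b, a proteolipid of the rotor ring, had 147, 183 and 139 CPM in rd10 and 234, 178 and 131 CPM in WT, with the highest value of each group in Rd10-4 and WT-1 (-0.21 ± 0.21). It was lower with the GC trend removed (-0.28, adjusted p = 0.0168).

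None of the 9 tested V1 genes was called by edgeR, against 14.4% of all genes tested, and limma voom called 0. At an unadjusted edgeR p under 0.05 there was 1, against 4188 of all 13905 genes. That gene, Atp6v1g2, was higher by DESeq2. Atp6v1g2, the neuronal form of the stalk subunit G, had 230.2, 219.6 and 199 CPM in rd10 and 178, 171 and 157 CPM in WT (log2 fold change 0.36 ± 0.11 SE, edgeR adjusted p = 0.0679). The groups did not overlap. It passed with DESeq2 (adjusted p = 0.0312), upper quartile factors (0.0333), unscaled library sizes (0.00889), removal of the GC trend (0.0323) and without WT-1 (0.0432). Its exons share 144 bases with Nfkbil1 on the other strand.

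For the catalytic core of V1 the intervals covered 0. Atp6v1b2, the nucleotide-binding B subunit of neurons and most other cells, had 978, 899 and 892 CPM in rd10 and 868, 965 and 925 CPM in WT, and its log2 fold change of 0.01 had an interval from -0.24 to 0.25. Atp6v1a, the catalytic A subunit, had 743, 654 and 703 CPM in rd10 and 601, 686 and 701 CPM in WT (interval -0.18 to 0.34). For both genes the groups were mixed. Atp6v1c1, Atp6v1d, Atp6v1e1 and Atp6v1h, for the parts that join, turn, hold and regulate the motor, had log2 fold changes between 0.02 and 0.08, and the outermost interval bounds of these 4 were -0.25 and 0.38. Atp6v1g1, the widespread G form, had 120.1, 113 and 108 CPM in rd10, below the 126, 131 and 122 CPM of WT (-0.15 ± 0.10, adjusted p = 0.373). Atp6v1f was less sure, at 73.1, 91.7 and 63.5 CPM in rd10 and 90.7, 61.8 and 49.6 CPM in WT.

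Levels of different genes were compared per kilobase of the longest coding transcript in GENCODE M21, an approximation that does not know which transcript the retina uses. On that scale Atp6v1b2 stood at 327 CPM per kb in rd10 and 325 in WT, and Atp6v0e2 at 303 CPM per kb in rd10 and 379 in WT, the highest levels among the Atp6v genes. Atp6v1e1, Atp6v0d1, Atp6v0a1, Atp6v1a and Atp6v0b followed, between 156 and 218 CPM per kb in rd10 and between 134 and 209 in WT. Within each set of paralogs 1 form was far more abundant: Atp6v0a1 had 185 CPM per kb in rd10, against 13.1 for Atp6v0a2, and Atp6v0e2 had 303 against 5.17 for Atp6v0e. The G subunit was the exception, with 142 CPM per kb for Atp6v1g2 in rd10 and 110 in WT, beside 100.3 for Atp6v1g1 in rd10 and 111 in WT.

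**Figure D3:**
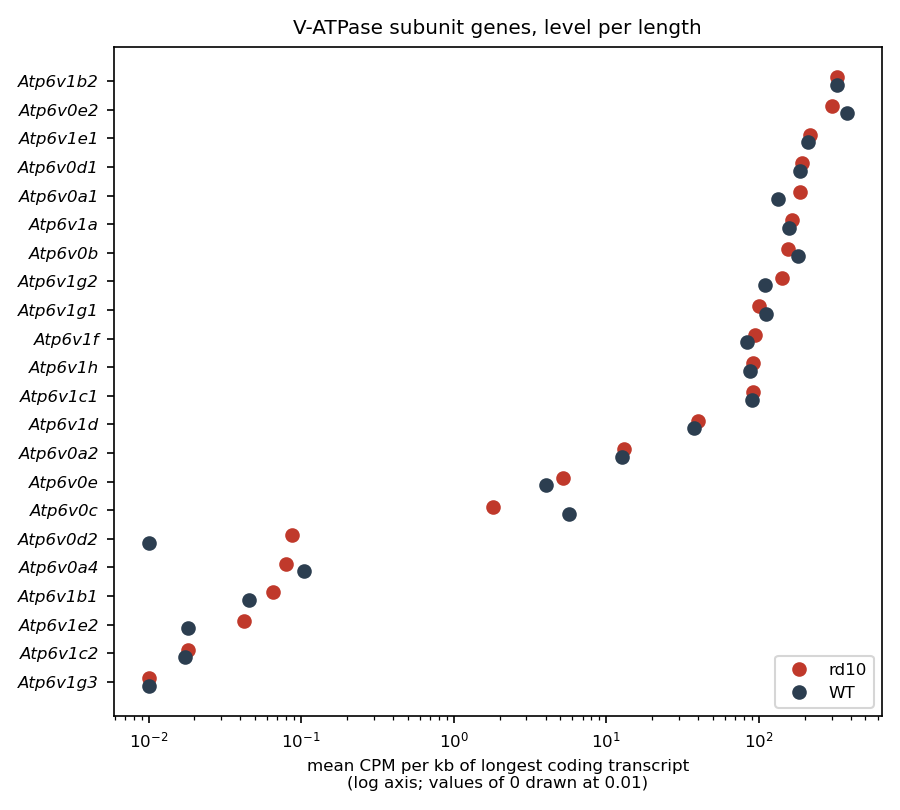
Mean CPM per kilobase of the Atp6v genes in rd10 and in WT libraries, on a log axis, with values of 0 drawn at 0.01. The ubiquitous or neuronal forms lie above 30 CPM per kb, apart from Atp6v0a2, Atp6v0e and the uncertain Atp6v0c, while Atp6v0a4, Atp6v0d2, Atp6v1b1, Atp6v1c2, Atp6v1e2 and Atp6v1g3 lie near 0.

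The other 8 Atp6v rows and Lamp3 were left untested for low counts. Atp6v0a4, Atp6v1b1 and Atp6v1g3 belong to the pump of acid-secreting kidney cells; they had at most 6, 3 and 0 counts in any library. Atp6v1c2 and Atp6v1e2 had at most 1 count. Atp6v0d2, the d form of osteoclasts and some macrophages, had 0, 6 and 2 counts in rd10 and 0 in each WT library, too few to compare. Atp6v0c, the main proteolipid of the rotor ring, had 2, 68 and 6 counts in rd10 and 238, 10 and 2 counts in WT, so that WT-1 and Rd10-4 held nearly all of them. This gene has a processed pseudogene in the same table, Atp6v0c-ps2, with 2 counts or fewer in rd10 and 4 or fewer in WT, and the handling of reads that match several places is not stated, so the level of Atp6v0c is uncertain.

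The ratio of a pair of paralogs within a library does not depend on how libraries are scaled. Of 13 pairs chosen, 8 had at least 10 counts on average in 1 group for both genes. The ratio of Atp6v0e2 to Atp6v0e was 5.16, 5.24 and 5.25 on the log2 scale in rd10 and 5.79, 5.93 and 5.996 in WT, a difference of -0.69 ± 0.07 (SE of the difference, n = 3 per group). The ratio of Atp6v1g2 to Atp6v1g1 was 0.94, 0.96 and 0.88 in rd10 and 0.50, 0.39 and 0.36 in WT, a difference of 0.51 ± 0.05. For both pairs the gap between the groups was larger than the spread within either.

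Another pair of ratios was also apart, with a wider spread. Lamp2 to Lamp1 was -0.50, -0.74 and -0.51 in rd10 and -1.68, -1.26 and -1.01 in WT, a difference of 0.73 ± 0.21. Atp6v0a2 to Atp6v0a1 was -3.52, -3.50 and -3.20 in rd10 and -3.15, -3.01 and -2.81 in WT, a difference of -0.42 ± 0.14. These 4 pairs each gave the smallest p that an exact two-sided permutation test of 3 against 3 allows (p = 0.1, adjusted over 8 pairs 0.2), so no pair can pass a threshold of 0.05 in this design. Transcript GC content was 40.9% for Lamp2 and 50.3% for Lamp1, and 50.8% for Atp6v0a2 and 51.1% for Atp6v0a1. It was 52.7% for Atp6v0e2 and 47.0% for Atp6v0e, and 54.0% for Atp6v1g2 and 48.2% for Atp6v1g1. The part of the GC trend in these ratios was not tested. Map1lc3a to Map1lc3b (0.22 ± 0.27), Atg2b to Atg2a (-0.09 ± 0.49), Atg9b to Atg9a (-0.82 ± 0.34) and Atg16l2 to Atg16l1 (0.63 ± 0.46) overlapped between the groups. The difference for Atg16l2 to Atg16l1 was 1.08 without WT-1 and 0.38 without WT-4. The difference for Map1lc3a to Map1lc3b was 0.40 without WT-1, 0.03 without WT-23 and 0.06 without Rd10-4.

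**Figure D4:**
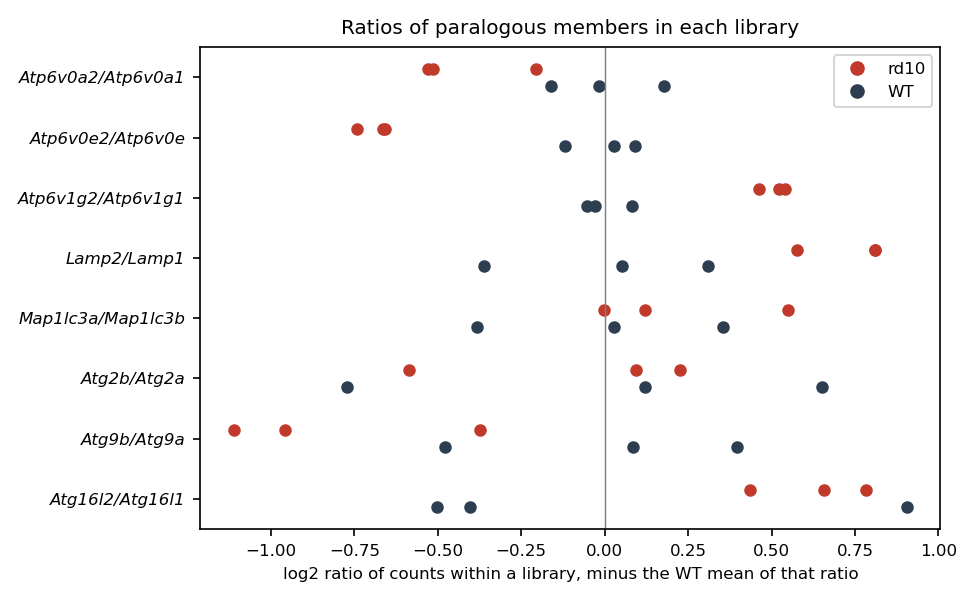
Log2 ratios of counts of 8 pairs of paralogs in each library, drawn as the difference from the WT mean of the pair, with rd10 points above WT points in each row. The groups are apart for Atp6v0a2/Atp6v0a1, Atp6v0e2/Atp6v0e, Atp6v1g2/Atp6v1g1 and Lamp2/Lamp1 and overlap for the other 4 pairs.

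The summed counts of the 23 Atp6v rows made up 0.533%, 0.506% and 0.487% of all counts in the rd10 libraries and 0.41%, 0.431% and 0.403% in the WT libraries. The 18 Atg genes together made up 0.0732%, 0.0759% and 0.0727% in rd10 and 0.0725%, 0.0692% and 0.0688% in WT. These are shares of the unscaled total, of which rod genes took less in rd10, and so they follow the scale of library size alone. On the same unscaled basis the median log2 fold change of the V-ATPase members was 0.30, against 0.06 with TMM.

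Of the other genes of the pathway, in 9 lists, those of the early steps were mostly not called, while lysosomal enzymes and membrane proteins included larger rises. Optn, the gene of optineurin, a receptor that links ubiquitin-tagged cargo to LC3, fell to 60.2, 55.2 and 76.9 CPM in rd10, against 170, 170 and 178 CPM in WT (log2 fold change -1.43 ± 0.14 SE, edgeR adjusted p = 0.000826). Nbr1, a receptor related to p62, fell by 0.56 ± 0.11 on the log2 scale (adjusted p = 0.0151). The other 9 of the 11 receptor genes were not called (18.2% called, against 14.4% of all genes tested). Uvrag, a partner of the class III PI3-kinase, fell by 0.57 ± 0.12 (adjusted p = 0.0182). It was the only call among 9 genes of the initiation kinase and PI3-kinase complexes (11.1%). Gabarap, of the sister family of LC3, rose by 0.41 ± 0.10 (adjusted p = 0.0335), while the other 2 of its family were not called (33.3% called).

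Leaving out single libraries ended several of these calls. Without WT-4 or any single rd10 library, Uvrag (adjusted p between 0.0585 and 0.105) and Gabarap (between 0.0754 and 0.172) missed the threshold. Nbr1 missed it when WT-4, Rd10-3 or Rd10-4 was left out (between 0.0633 and 0.0970), and Gabarap with inner neuron factors (0.15, adjusted p = 0.445). Uvrag and Nbr1 also missed the threshold with library size alone (adjusted p = 0.111 and 0.0948). Optn held without any single library. The 5 genes of PI3P effectors and the 13 of autophagosome fusion had 0 calls by edgeR, against 14.4% of all genes tested. At an unadjusted edgeR p under 0.05 they had 0, against 4188 of all 13905 genes, and DESeq2 and limma voom called 0. Library size alone gave 1 higher in each list, and removal of the GC trend 1 higher and 1 lower among the fusion genes. Over all genes these settings gave 2471 higher and 572 lower, and 2091 and 2729. Rab7, the late endosome GTPase, had a log2 fold change of 0.13 ± 0.11 and Vps41, of the HOPS tether, 0.21 ± 0.12. Wipi2 and Zfyve1, which bind PI3P, had -0.09 ± 0.10 and 0.12 ± 0.13. The 13 tested genes of MiT/TFE factors and nutrient sensing had 0 calls by edgeR (14.4% of all genes tested), and 0 by DESeq2 and limma voom. At an unadjusted edgeR p under 0.05 they had 1, against 4188 of all 13905 genes. In this list 3 genes were lower with inner neuron factors, 3 with the GC trend removed and 1 without both WT-1 and Rd10-4. Over all genes tested in these fits, 2739, 2729 and 1395 were lower. Mtor, the kinase that restrains autophagy, had 152 ± 10.7 CPM in rd10 and 152 ± 21.0 CPM in WT (SD, n = 3 per group). Rptor, its scaffold partner, had a log2 fold change of -0.07 ± 0.15.

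Lysosomal hydrolases and their cofactors, 30 of them tested, had 6 genes higher (20% against 7.12% of all genes tested) and 0 lower, and their median log2 fold change was 0.31 against -0.04 for all genes. At an unadjusted p under 0.05, 14 of the 30 differed in either direction, against 4188 of all 13905 genes tested. DESeq2 called 8 higher and 1 lower, library size alone gave 14 higher and 0 lower, and removal of the GC trend gave 12 higher and 2 lower. Over all 13905 genes, DESeq2 called 1243 higher and 1194 lower, library size alone 2471 and 572, and removal of the GC trend 2091 and 2729. Gusb, the beta-glucuronidase gene, rose by 1.08 ± 0.15, Grn, the gene of progranulin, by 1.04 ± 0.18, and Arsb, an arylsulfatase gene, by 0.48 ± 0.11 (adjusted p = 0.00322, 0.00686 and 0.0207). Lipa and Npc2, of lysosomal lipid handling, rose by 0.53 ± 0.15 and 0.45 ± 0.11 (adjusted p = 0.0483 and 0.0278). The count of hydrolases ran from 3 to 7 calls of either direction when 1 library was left out, with 3 without WT-4 or Rd10-3, and it was 8 higher and 1 lower without both WT-1 and Rd10-4. Arsb missed the threshold when WT-4, Rd10-3 or Rd10-4 was left out (adjusted p between 0.0739 and 0.123), Npc2 without WT-4 or any single rd10 library (between 0.0816 and 0.120), and Lipa without any single library but WT-23 (between 0.0549 and 0.180). With inner neuron factors 3 were higher and 2 lower, the median was 0.05, and Arsb, Npc2 and Lipa were not called (adjusted p between 0.245 and 0.324). Over all genes these factors gave 639 higher and 2739 lower, with a median of -0.29.

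Among 16 other lysosomal membrane genes, 4 rose (25%, against 7.12% of all genes tested) and 2 fell (7.32% of all genes fell). The count was 7 higher and 2 lower with library size alone, 8 and 2 after removal of the GC trend, and 3 and 2 with inner neuron factors. Over all 13905 genes these settings gave 2471 higher and 572 lower, 2091 and 2729, and 639 and 2739. Cd68 and Laptm5, both of macrophages and microglia, rose by 2.37 ± 0.21 and 2.41 ± 0.23, Cd63, a tetraspanin of late endosomes, by 1.01 ± 0.10, and Laptm4a by 0.41 ± 0.11. Laptm4b fell by 0.66 ± 0.10 and Slc38a9, the arginine sensor of the lysosome, by 0.88 ± 0.16 (edgeR adjusted p between 0.000581 and 0.0376 for the 6). Laptm4a missed the threshold without any single library but WT-1 (adjusted p between 0.0510 and 0.193) and with inner neuron factors (0.15, adjusted p = 0.451), and Slc38a9 without Rd10-3 (adjusted p = 0.0547). Tcirg1, which encodes the a3 subunit of the same pump and is named outside the Atp6v scheme, had 11.8, 12.9 and 7.76 CPM in rd10, all above the 3.11, 2.65 and 2.37 CPM of WT (2.00 ± 0.25, adjusted p = 0.00189). At 3.57 CPM per kb in rd10 it stayed far below the 185 CPM per kb of Atp6v0a1. Ccdc115, a V-ATPase assembly factor gene, fell by 0.82 ± 0.12 (adjusted p = 0.00434), and the other 9 accessory and assembly genes were not called. Of this list 18.2% were called, against 14.4% of all genes tested.

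Markers of microglia and macrophages moved alongside these genes. All 15 rose (100%, against 7.12% of all genes tested), none was at 0 throughout, and their summed level was 453 to 568 CPM in rd10 and 148 to 155 CPM in WT. Cd68 belongs to that list as well. Of 12 Müller glia markers, 9 rose (75%, against 7.12% of all genes tested), with sums of 13521 to 16441 CPM in rd10 and 8638 to 9627 CPM in WT. The part of either cell type in the levels of Grn, Laptm5, Tcirg1 or any member was not tested.

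**Figure D5:**
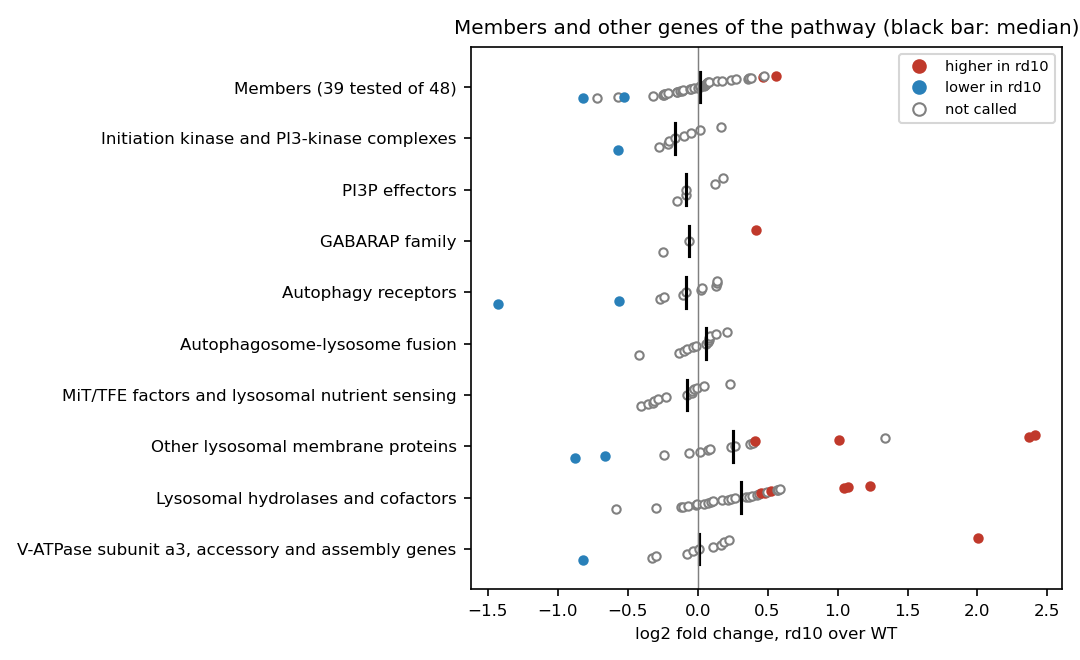
Log2 fold changes of rd10 over WT for the tested members and for 9 lists of other genes of the pathway; each circle is a gene, filled where it passed the adjusted threshold, and the black bar is the median. The members lie around 0, while the lists of lysosomal hydrolases and of other lysosomal membrane proteins have medians further to the right, at 0.31 and 0.25. In the list of subunit a3, accessory and assembly genes, Tcirg1 reaches 2.00.

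The authors' deposited table of selected genes, which gives 1 FPKM value per group, listed 7 of the 48 members, 4 higher and 3 lower in rd10. In the authors' deposited table Lamp5 had 106.0 FPKM in rd10 and 72.0 in WT (p = 4.38e-05), Atp6v0a1 had 91.8 and 66.4 (p = 0.00152), Lamp2 44.1 and 31.8 (p = 0.0111) and Atp6v1g2 238.6 and 186.1 (p = 0.0110). The authors' deposited table gave Atg12 4.9 FPKM in rd10 and 8.7 in WT (p = 1.54e-05), Atg4c 6.5 and 9.5 (p = 0.00347) and Atp6v0e2 121.2 and 151.6 (p = 0.0146). The 4 members called here are among these 7, and the other 3 had edgeR adjusted p between 0.0679 and 0.0949 in the test over all genes. The name of the deposited table marks cuts on p, fold change and FPKM, so its genes were not selected as the calls here were. Both rest on the same study's data (log2 fold change of Atg12 -0.82 in each), so this overlap is no independent check. The authors' smaller deposited table listed 0 of the members. The sources used here do not say how the p-values of the deposited tables were computed or adjusted.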

How the data were processed

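RNA was measured in 6 retina libraries, 3 per group, made with a kit that marks strand, per the labels' protocols. The submitters' processing notes say that the tools were TopHat2 2.1.0, HTSeq and edgeR, and the build was mm10; no source used here names the annotation or the strand setting of the counting. Raw counts per gene, as whole numbers, were deposited by the authors. The authors' deposited tables of selected genes hold an FPKM for each group, a log2 fold change and a p-value. Column numbers match no replicate number in the titles, so columns were assigned to groups by name.

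Genes were kept by filterByExpr and fitted with edgeR 4.0.16 in R 4.3.3 (TMM, robust quasi-likelihood, Benjamini-Hochberg, threshold 0.05), after the fit was tested on simulated data. Within each group the libraries varied beyond counting noise (chi-square per degree of freedom 7.36 to 57.8). Paralog ratios were compared by an exact permutation test. Alternatives were DESeq2 1.42.0, limma 3.58.1 (voom), other scalings and filters, removal of a GC trend (95.7% of genes had a GC value) and left-out libraries.

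The members and lists were chosen with earlier results of these data known. All members are accounted for, and in each list the up to 4 called genes with the smallest p are named, and the 2 most abundant in lists without a call. Laptm4a, Slc38a9, Lipa and Npc2 fall outside that rule and were named after their values were seen. A gene that the rule names is not reported here.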

Additional observations from a re-analysis of the deposited data

How the results depend on the processing

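The number of called genes was 2008 over all genes; it was 3043 with library size alone, 3378 with inner neuron factors and 4820 with the GC trend removed, and ran from 885 to 3214 when 1 library was left out. Of the members, 2 were higher: 6 with library size alone, 0 with inner neuron factors, 4 with the GC trend removed, and 0 to 3 when 1 library was left out. The 2 lower members were 1 with RLE factors, upper quartile factors, library size alone, no low-count filter or a mean of at least 5 CPM, 7 with inner neuron factors or the GC trend removed, and 0 to 2 when 1 library was left out. Without WT-4 or without Rd10-3 edgeR called 0 members, with 3 and 2 higher and 2 and 2 lower at an unadjusted p under 0.05; with inner neuron factors 1 higher and 15 lower had such a p. Without both WT-1 and Rd10-4, chosen after seeing the data, Atp6v0a1, Lamp5, Atg12 and Atg4c stayed called. The difference of the Atg2b to Atg2a ratio ran from -0.48 to 0.24 when 1 library was left out, with 0.24 without WT-23 and 0.16 without Rd10-4, while the other 7 pairs kept their sign. Of members not called, 14 changed sign with inner neuron factors and 10 with library size alone. The causes were not tested. No paired analysis was possible because the column numbers of the groups share only 1 number (4), and cannot be matched to the numbers in the titles.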
